A study of Mus musculus with 3 samples.

Results

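Stromal cells with and without mRNA of *EGFP*, the gene of a green fluorescent protein, were compared within barcode set 1 of a single cell RNA-seq (scRNA-seq) table. A cell of set 1 was taken as stromal when its summed *Col1a2* and *Col3a1* (fibrillar collagen chains of connective tissue) was above 0 and above its summed *Cdh1* and *Cldn4* (an epithelial cadherin and a tight junction protein). This rule found 535 stromal cells among the 766 cells of set 1 and the 14573 cells of the table. Of these, 302 cells had at least 1 *EGFP* unique molecular identifier (UMI, which stands for 1 captured mRNA molecule) and are called *EGFP*+, and 233 cells had none and are called *EGFP*-. The groups were chosen by the *EGFP* count and the stroma by the 4 genes above, so the levels of these 5 genes are given as a description only. Since all cells come from 1 library, cells are not replicates, no test or p-value was computed, and each 95% interval covers counting error only.

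The table holds 3 libraries, 1 each from E18.5 male urogenital sinus (UGS, the embryonic structure whose epithelium later grows out as the prostate), P14 prostate and P35 prostate, all labelled normal. No label ties the barcode endings 1, 2 and 3 to a tissue, so set 1 was not assigned to an age. Its number of cells is the one that the study states for the urogenital sinus after filtering. The mice of the study were of mixed C57BL/6 and 129S1/SvImJ background, while genotype, the number of animals per library and any treatment of the animals are not given for these libraries in the sources used here. The cells were dissociated with collagenase and TrypLE, and according to the methods of the study in medium with serum, dihydrotestosterone and Y-27632, and the part of these additions in the values below was not tested.

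The study works with R26 mTmG mice, in which *Osr1*-Cre switches a ubiquitous membrane-bound red protein to a membrane-bound green one. Such a switch is a change in DNA, so it is inherited by all descendants of a cell that once had Cre, and it marks past rather than present activity of the driver. In the UGS, mesenchyme surrounds the epithelium, sends it signals such as Wnt, FGF and BMP ligands during budding, and later gives rise to fibroblasts and smooth muscle. The study calls its reporter *mGFP*, and whether the row named *EGFP* is that reporter is not known here. *Osr1* was not analysed here.

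*Set* 1 had a median of 19357 UMIs per cell (751 to 156518). The gene rows used here held 52.7% of its UMIs. The stromal rule left some cells close to its limit: 22 stromal cells passed it by 1 UMI, and 1 cell outside it was tied. *Dcn*, which encodes the fibroblast proteoglycan decorin, stood at 2958 UMIs per 1000000 UMIs of all genes (CPM) in *EGFP*+ and 2774 in *EGFP*- cells matched as described below. The 8 fibroblast markers with a row that did not enter the rule summed to 4331 and 4061 CPM there, with 0 of 8 past 2-fold. In sets 2 and 3 the *EGFP* row held 0 UMIs.

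*EGFP*+ cells made up 56.4% (52.1 to 60.7) of the stromal cells, but they were not of 1 kind. Among them 90 cells had 1 *EGFP* UMI, 44 had 2, 53 had 3 to 10 and 115 had 11 or more, with a highest count of 535. Per cell, the *EGFP* level fell into a lower group, with 180 cells below 300 CPM, and an upper group, with 107 cells above 1000 CPM, and 15 cells lay in between. Cells at or above 500 CPM, a limit set after these levels were seen, are called *EGFP*-high and the other *EGFP*+ cells *EGFP*-low. The 117 *EGFP*-high cells (21.9%, 18.4 to 25.6) had a median of 4086 CPM (543 to 14688) and held 96.1% of all stromal *EGFP* UMIs. The limit in CPM also admitted shallow cells with 1 *EGFP* UMI, which lay at up to 914 CPM. The 185 *EGFP*-low cells had a median of 79.3 CPM (13.2 to 346).

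**Figure D1:**
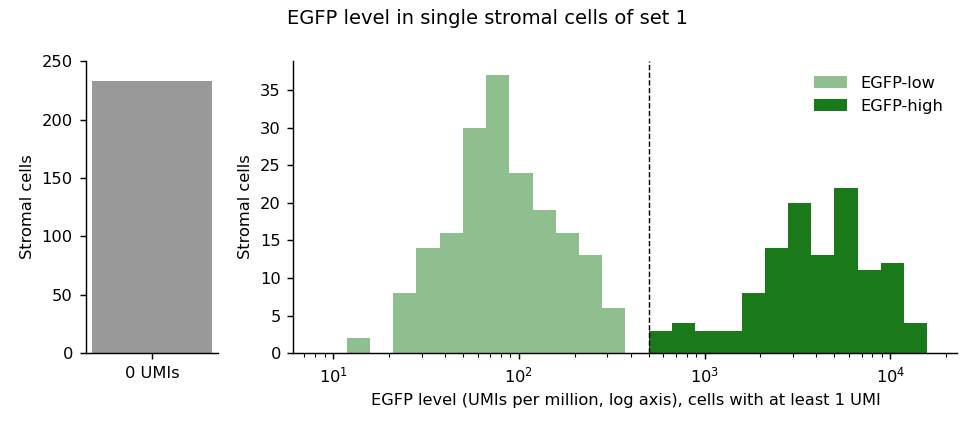
*EGFP* level of the 535 stromal cells of set 1, with cells without an *EGFP* UMI on the left and, on the right, the level per cell in CPM on a log axis for the others. The dashed line marks 500 CPM, and the 117 cells above it form a group of their own around 4086 CPM.

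The *EGFP*+ share rose with sequencing depth, while the *EGFP*-high share stayed nearly level. With the stromal cells ranked by total UMIs and cut into shallow, middle and deep parts of 178, 178 and 179 cells, 48.9%, 51.7% and 68.7% were *EGFP*+. The *EGFP*-high share was 23.0%, 19.1% and 23.5% in the same parts. When each cell was thinned to 9200 UMIs, which left out 17 *EGFP*+ and 37 *EGFP*- cells, the *EGFP*+ share was 46.8% (42.2 to 51.3). By part, the thinned share was 54.8% in the shallow (124 cells left), 43.3% in the middle and 44.7% in the deep part, so no rise was seen at equal depth. At full depth the median was 17352 UMIs in *EGFP*-high, 20164 in *EGFP*-low and 15881 in *EGFP*- cells.

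*EGFP* UMIs were also found outside the stroma. Cells with leukocyte markers outside the stromal rule had an *EGFP* UMI in 1 of 31 cells (3.23%, 0.0816 to 16.7), at 5.46 CPM (0.662 to 19.7) and a median of 9638 UMIs. Cells with epithelial markers outside the rule had one in 79 of 149 cells (53.0%, 44.7 to 61.2), at 32.8 CPM (28.8 to 37.2) and a median of 41580 UMIs, and 1 of these cells was *EGFP*-high. *EGFP*-low and *EGFP*- stromal cells together stood at 49.0 CPM (44.6 to 53.7). All 39 cells with leukocyte markers, those inside the stromal rule included, stood at 35.9 CPM (21.3 to 56.7), an interval that overlapped both. This value rested on 18 *EGFP* UMIs in 3 of the 39 cells, 1 of them *EGFP*-high, while the 49.0 CPM left *EGFP*-high cells out. Whether the *EGFP* mRNA of the lower stromal cells and of the epithelial cells was their own or free RNA was not tested.

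*EGFP*-high cells were present in each of the 11 clusters into which the stromal cells fell, with the rule genes and *EGFP* left out of the clustering. Their share ranged from 6.25% (1 of 16 cells) in cluster 9 to 33.3% (17 of 51, 20.8 to 47.9) in cluster 3. Cluster 3 was led by genes that included *Wnt16*, a Wnt ligand, and *Aldh1a3*, an enzyme of retinoic acid synthesis, and had the highest *EGFP* level, 2187 CPM (2083 to 2295). The largest cluster, cluster 0, with *Rspo3* (a secreted enhancer of Wnt signalling), *Dach2*, *Npnt* and *Meis2* among its leading genes, had 36 *EGFP*-high cells of 121 (29.8%, 21.8 to 38.7). Cluster 1, led by *Rgs5*, *Epyc* and *Ptx3*, had 17 of 101 (16.8%, 10.1 to 25.6). Cluster 6, smooth muscle-like by 5 of 6 markers, had 7 of 35 (interval 8.44% to 36.9%). The intervals of clusters 0, 1, 3 and 6 overlapped with each other.

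The clusters led by genes of other cell types held 1 to 12 *EGFP*-high cells each, and the intervals of their shares overlapped. Cluster 7 had markers of endothelium (9 of 9) and of leukocytes (10 of 10) together, stayed unnamed, and had 2 *EGFP*-high cells of 31 (6.45%, 0.791 to 21.4) at a median of 2255 UMIs. Glia-like cluster 8 had 2 of 18 and neuron-like cluster 9 had 1 of 16. Cluster 10, led by the muscle regulators *Myog* and *Myod1*, had 4 of 15, and cluster 2, led by the epithelial genes *Sfn* and *S100a14*, had 12 of 55. *Sfn* was found in 14.5% and *S100a14* in 9.09% of the cells of cluster 2, so few of its cells carried these genes, although the cluster is left out whole where clusters are left out below. In mitotic cluster 4, 40 of 50 cells were *EGFP*+ (80.0%, 66.3 to 90.0) at a median of 24516.5 UMIs, but 12 were *EGFP*-high (24.0%, 13.1 to 38.2).

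**Figure D2:**
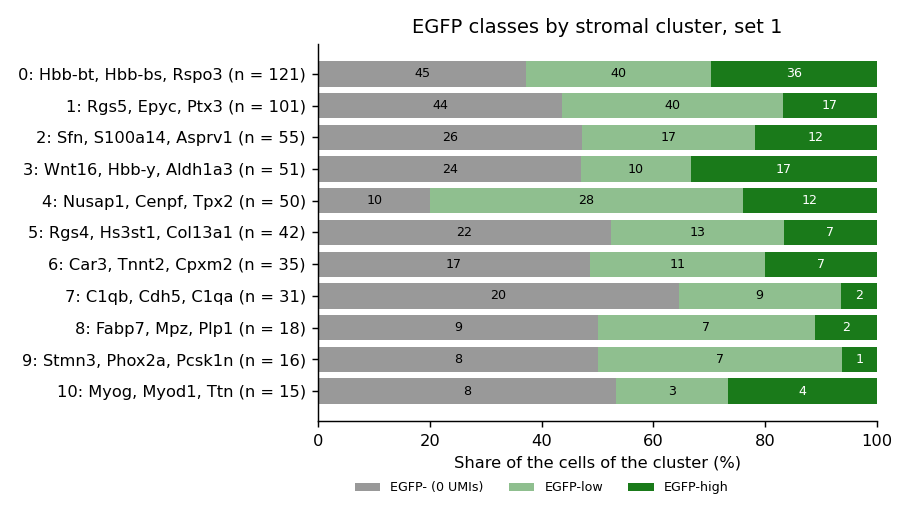
Share of *EGFP*-, *EGFP*-low and *EGFP*-high cells in each stromal cluster, in percent, with cell numbers in the bars and 3 of the leading genes of each cluster beside its number. *EGFP*-high cells appear in every cluster, from 1 of 16 cells in cluster 9 to 17 of 51 in cluster 3.

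To ask which other genes differ, 210 *EGFP*+ cells were paired with 210 *EGFP*- cells of nearly the same total UMIs (medians 16313.5 and 16666.5), and their summed UMIs were compared for the 4599 genes with at least 100 UMIs. Most genes were alike: 90.5% had a log2 ratio within 0.5 of 0, and the median was 0.01. A ratio of at least 2-fold was seen for 20 genes higher in *EGFP*+ cells (0.435% of the genes) and for 94 genes lower (2.04%). The higher genes included the endothelial cadherin *Cdh5*, the endothelial sialomucin *Emcn*, the vascular genes *Cd93*, *Myct1* and *Apold1*, and *Chgb*, a protein of secretory granules. The lower genes included the macrophage complement genes *C1qa*, *C1qb* and *C1qc*, the muscle regulator *Myog*, neuronal *Stmn3*, and the epithelial gene *Sfn*.

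These ratios rested on very few cells. *Chgb* had 250 UMIs in *EGFP*+ and 8 in *EGFP*- cells, a log2 ratio of 4.98 (3.98 to 6.20), and 3 cells held 99.2% of the 250. *Cdh5* had 180 against 33 UMIs (2.46, 1.92 to 3.04), from 6 cells against 2. *C1qb* had 1 against 329 UMIs, the latter from 6 cells. *Myog* had 10 UMIs in 1 cell against 336 in 3 cells (-5.06, -6.13 to -4.16). Of the 94 lower genes, 47 had at least 50% of their *EGFP*- UMIs in 3 cells, and of the 20 higher genes 10 had at least 50% of their *EGFP*+ UMIs in 3 cells. Over all 4599 genes this held for 2.15% and 2.09%.

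**Figure D3:**
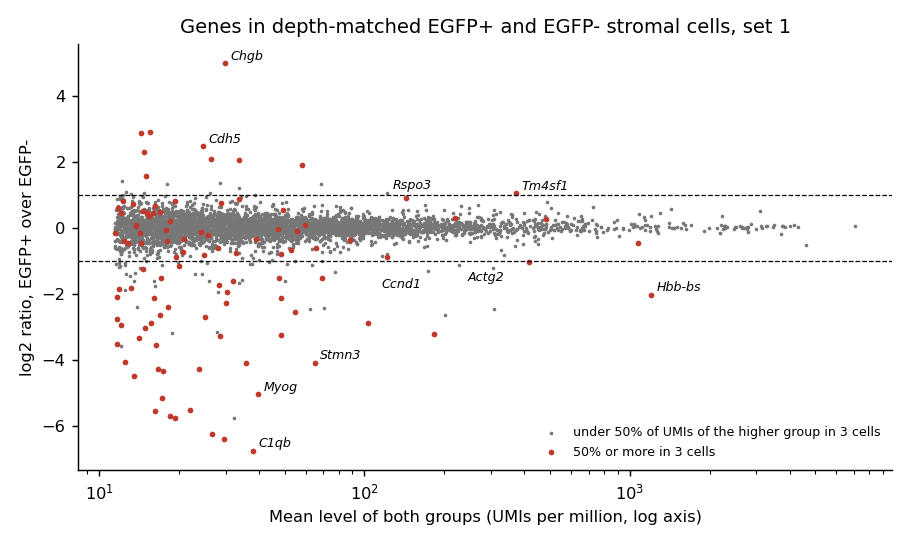
The log2 ratio of each of 4599 genes between 210 *EGFP*+ and 210 *EGFP*- matched cells, against the mean level in CPM on a log axis, with dashed lines at 2-fold. Red points are genes whose higher group had 50% or more of its UMIs in 3 cells, and most of the genes farthest from 0 are red.

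The most abundant gene past 2-fold was *Hbb-bs*, a beta-globin gene of red blood cells, at 470 CPM in *EGFP*+ and 1939 in *EGFP*- matched cells (-2.04). Among all *EGFP*- stromal cells, 1 cell held 7578 of 8487 *Hbb-bs* UMIs and the next held 271, while the median cell had 3. Among all *EGFP*+ cells, 1 cell held 1437 of 2399, and the median was also 3. The typical cell of both groups thus had the same count. *Hbb-bs* and *Hbb-bt* also headed the genes of cluster 0, in which 3 matched *EGFP*- cells held 98.7% and 99.2% of the *EGFP*- UMIs of these genes.

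Markers of other cell types moved with *EGFP* in both directions. Over all genes tested, 2.04% were past 2-fold lower and 0.435% higher in *EGFP*+ matched cells, and 1.56% were lower without depth matching. All 7 neuronal markers with a row were past 2-fold lower in *EGFP*+ matched cells, with a summed level of 179 against 1124 CPM. Without depth matching 5 of 7 were, at 458 against 1109 CPM. Of the 24 stromal cells with at least 20 UMIs of *Stmn2*, a neuronal tubulin regulator, 15 were *EGFP*-, 8 *EGFP*-low and 1 *EGFP*-high, at a median of 48222 UMIs. All 6 leukocyte markers with enough UMIs were lower (4.63 against 328 CPM over the list, with *Ptprc*, *Cd52* and *Cd53* at 0 UMIs in *EGFP*+ cells), and so were 2 of 3 epithelial markers (36.3 against 127 CPM). Without depth matching the leukocyte list stood at 52.3 against 324 CPM with no member at 0, all 7 tested were lower, and *C1qb* went from -6.77 to -2.69, as 1 *EGFP*+ cell with 88 of its 90 *EGFP*+ UMIs was among the cells that matching left out. Endothelial markers went the other way, with 3 of 7 past 2-fold higher and 290 against 163 CPM over the list. Their direction depended on the cells compared, as the list stood at 97.7 against 210 CPM between *EGFP*-high and *EGFP*- cells, and at 72.7 against 130 CPM between *EGFP*+ and *EGFP*- cells without the 5 clusters described below. The 11 stromal cells with at least 3 *Cdh5* UMIs had a median of 71291 UMIs, against 17242 over all stromal cells. Of these 11 cells, 8 were *EGFP*-low, 2 *EGFP*-high and 1 *EGFP*-, while 68.7% of the deep part of the stromal cells were *EGFP*+. The 4 pericyte markers had none past 2-fold (186 against 239 CPM). Without depth matching 1 of 4 was lower (136 against 238 CPM), and so was 1 of 4 without the 5 clusters (176 against 327 CPM). Over all genes 1.56% and 0.610% were lower there. The 4 glial markers tested gave a median log2 ratio of 0.02 and none past 2-fold. Whether these cells are doublets, other cells with collagen mRNA or cells that took up free RNA was not tested.

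With clusters 2, 7, 8, 9 and 10 left out, which were led by genes of epithelium, endothelium with leukocytes, glia, neurons and skeletal muscle, 156 matched pairs remained. This comparison and the ones with *EGFP*-high cells were added after the first results were seen. The count past 2-fold was then 11 genes higher (0.292% of 3772) and 23 lower (0.610%). Of the 20 higher genes 9 still had enough UMIs, and 5 of them were still past 2-fold, namely *Epyc*, *Nts*, *Fmod*, *Il1r1* and *Msx1*. In this comparison 3 cells held 80.2% of the *EGFP*+ UMIs of *Nts* and 53.8% of those of *Epyc*. When cells with markers of other types were left out instead, *Nts* turned to -1.61 and *Fmod* to -0.13, and for *EGFP*-high cells without the 5 clusters *Nts* was -0.39. Of the 94 lower genes 25 were still tested and 9 still past 2-fold, among them *Actg2*, the gamma smooth muscle actin. Leukocyte markers stood at 3.12 and 0.687 CPM in these cells.

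*EGFP*-high cells were next set against *EGFP*- cells with the same 5 clusters left out, in 90 pairs (medians 17021 and 17004.5 UMIs). Pairs were made by total UMIs only, across the remaining clusters, so the mix of clusters was not held equal. Before matching, cluster 0 had 36 *EGFP*-high and 45 *EGFP*- cells, cluster 1 had 17 and 44, and cluster 6 had 7 and 17. The part of this mix in the ratios below was not tested. Here 15 genes were higher (0.523% of 2870) and 31 lower (1.08%). The *EGFP*- cells were in part those of the comparisons above, so the values are not independent of them.

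Of the 12 genes that led on the higher side by the interval bound nearest 0, *Penk*, *Cxcl12*, *Rgs2*, *Id1* and *Ept1* stayed under 2-fold. The others included *Cox4i2*, a subunit of cytochrome c oxidase (1.42, with 75.5% of its *EGFP*-high UMIs in 3 cells), *Fbxo5*, an inhibitor of the anaphase-promoting complex (1.32), and *Il1r1*, an interleukin-1 receptor (1.10). *Penk*, which encodes the precursor of the enkephalin peptides (mm10, chr4:4133536-4138815), stood at 783 against 430 CPM, a log2 ratio of 0.86 (0.74 to 0.99). In the matched cells the median was 381 CPM of *Penk* in *EGFP*-high and 171 in *EGFP*- cells. Over all stromal cells, not matched for depth, the median cell had 149 CPM of *Penk* in *EGFP*-, 217 in *EGFP*-low and 356 in *EGFP*-high cells. The 3 classes overlapped widely, with lowest cells at 0 and highest cells at 6127, 8023 and 4492 CPM. *Penk* was also higher within cluster 1 in *EGFP*+ cells (1366 against 645 UMIs, 1.16) and within cluster 0 in *EGFP*-high cells (294 against 147 UMIs, 0.92).

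*Cxcl12*, a chemokine of mesenchymal cells (chr6:117168535-117181368), stood at 432 against 256 CPM (0.76, 0.59 to 0.93). Its median per cell, again over all stromal cells and not matched for depth, was 88.1 CPM in *EGFP*-, 97.2 in *EGFP*-low and 256 in *EGFP*-high cells, so that *EGFP*-low cells sat with *EGFP*- cells. It was found in 84.4% of *EGFP*-high and 67.8% of *EGFP*- matched cells. *Rgs2*, a brake on G protein signalling (chr1:143999338-144004149), stood at 283 against 144 CPM (0.97, 0.75 to 1.19), with medians per cell, also unmatched, of 53.2, 89.7 and 148 CPM in the 3 classes. *Dner*, a Notch-binding membrane protein (chr1:84369839-84696221), stood at 58.8 against 21.2 CPM (1.48, 0.93 to 2.05), and 48.9% against 23.3% of the cells had a UMI. *Id1*, a target of BMP signalling, stood at 581 against 354 CPM (0.71, 0.57 to 0.86). *Ldb2*, a cofactor of LIM-homeodomain factors, stood at 58.3 against 26.2 CPM (1.16, 0.65 to 1.68), and 55.6% against 28.9% of the cells had a UMI. *Wee1*, a kinase that delays mitosis, was past 2-fold as well, and 3 cells held 23.9% of its *EGFP*-high UMIs.

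After the globins, the genes that led on the lower side included *Rgs5*, *Actg2*, *Myl9* and *Tpm2*. *Rgs5*, a pericyte gene, stood at 38.3 against 324 CPM (-3.08, -3.45 to -2.72), but 3 *EGFP*- cells held 71.1% of its UMIs. *Actg2* (chr6:83512909-83536251) stood at 150 against 638 CPM (-2.09, -2.29 to -1.90) and was found in 18.9% against 34.4% of the cells, with 44.0% of the *EGFP*- UMIs in 3 cells and a median of 0 per cell in both groups. *Myl9* and *Tpm2*, a myosin light chain and a tropomyosin, stood at 357 against 900 CPM (-1.33, -1.47 to -1.20) and at 254 against 648 CPM (-1.35, -1.51 to -1.19). In these matched cells the median *EGFP*-high cell had 123.1 CPM of *Myl9* and the median *EGFP*- cell 197, and the upper quartiles were 248 and 850 CPM. The medians of *Tpm2* were 122 and 172 CPM. Over all stromal cells, not matched for depth, the median of *Myl9* was higher in *EGFP*-high (145 CPM) than in *EGFP*- cells (110 CPM), so its direction in the median cell depended on the cells taken. Of the 9 contractile genes tested, 3 were past 2-fold lower, where 1.08% of all genes tested were, and the median was -0.84.

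*Eln*, which encodes elastin (chr5:134702595-134747368), stood at 467 against 1679 CPM (-1.85, -1.96 to -1.74), and *Fn1*, which encodes fibronectin, at 267 against 709 CPM (-1.41, -1.56 to -1.26). In these matched cells the medians per cell lay close together, while the upper quartiles did not. The median *EGFP*-high and *EGFP*- cell had 118 and 126 CPM of *Eln*, with upper quartiles of 266 and 627 CPM and highest cells at 6148 and 16204 CPM. Of all 39 stromal cells with at least 50 *Eln* UMIs, 21 were *EGFP*-, 13 *EGFP*-low and 5 *EGFP*-high, at a median of 30151 UMIs. For *Fn1* the medians were 173 and 176 CPM, the upper quartiles 338 and 785 CPM and the highest cells 1268 and 4634 CPM. Over all stromal cells, not matched for depth, both medians were higher in *EGFP*-high than in *EGFP*- cells, at 88.0 against 73.9 CPM for *Eln* and 140 against 92.4 CPM for *Fn1*. Between the 210 *EGFP*+ and 210 *EGFP*- matched cells they were also higher in *EGFP*+ cells, at 99.96 against 86.5 CPM and 154 against 106 CPM. Matched cells with a UMI of *Eln* made up 80.0% of *EGFP*-high and 81.1% of *EGFP*- cells. Within cluster 3, *Fn1* was higher in *EGFP*+ cells (75 against 37 UMIs, 1.13).

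**Figure D4:**
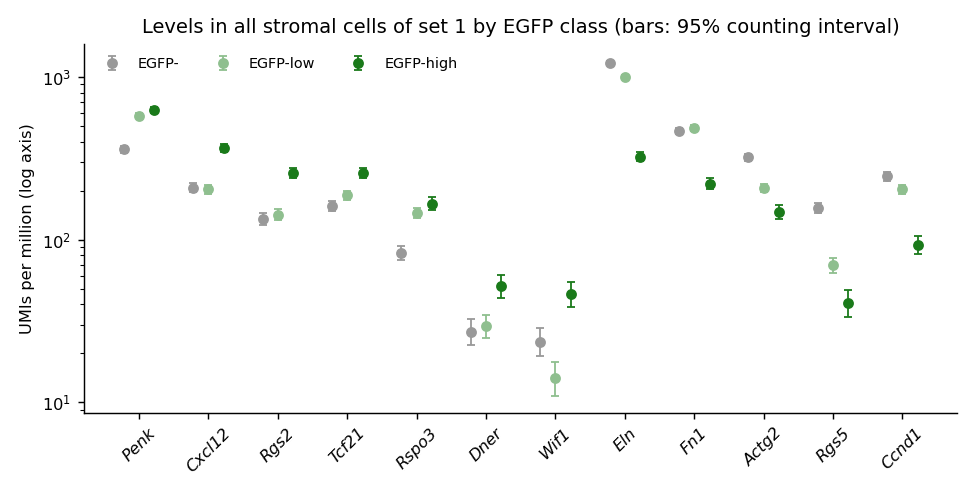
Summed level of 12 genes in CPM, on a log axis, in all *EGFP*- (233), *EGFP*-low (185) and *EGFP*-high (117) stromal cells, with 95% counting intervals. *Cxcl12*, *Rgs2* and *Dner* stand higher in *EGFP*-high cells than in both other classes, *Penk* and *Rspo3* higher in both *EGFP*+ classes than in *EGFP*- cells, and the summed levels of *Eln* and *Fn1* are lowest in *EGFP*-high cells, although the medians per cell of both genes are higher there (88.0 and 140 CPM) than in *EGFP*- cells (73.9 and 92.4 CPM).

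Within cluster 0 alone, where 27 *EGFP*-high and 27 *EGFP*- cells could be matched, 5 genes were higher (0.636% of 786) and 13 lower (1.65%). The immediate early gene *Btg2* stood at 1278 against 616 CPM (1.05, 0.84 to 1.27) and *Cxcl12* at 575 against 286 CPM (1.01, 0.69 to 1.34). *Actg2* had 16 against 92 UMIs (-2.61, -3.47 to -1.83), and *Csrp1*, a LIM protein of smooth muscle, had 61 against 142 (-1.30, -1.76 to -0.86). The *Actg2* UMIs came from 2 *EGFP*-high and 8 *EGFP*- cells, and 3 *EGFP*- cells held 78.3% of the 92. *Igfbp2*, an IGF binding protein, stood at 769 against 1562 CPM in cluster 0 (-1.02, -1.22 to -0.83), opposite to its ratio of 0.18 (0.10 to 0.27) over the 90 pairs.

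Among the signalling lists, the Wnt list had 20 of 27 genes with a row and 15 with enough UMIs in the main comparison of 210 pairs. *Rspo3* was past 2-fold higher, at 165 against 79.2 CPM (1.06, 0.87 to 1.25), and was found in 52.4% against 41.9% of the cells. *Ccnd1*, which encodes cyclin D1, was past 2-fold lower, at 99.1 against 248 CPM (-1.33, -1.49 to -1.16), with 38.0% of its *EGFP*- UMIs in 3 cells, and the median of the list was 0.02. Over all genes tested 0.435% were higher and 2.04% lower. Without the 5 clusters both came closer to 0, with log2 ratios of 0.86 (0.66 to 1.07) for *Rspo3* and -0.30 (-0.56 to -0.03) for *Ccnd1*. *Wnt2*, a Wnt ligand, was then the 1 gene of the list past 2-fold lower of 12 tested (16.3 against 36.7 CPM, -1.17, -1.70 to -0.67), where 0.610% of all genes were lower and 0.292% higher. *Wif1*, a secreted Wnt inhibitor, stood at 46.3 CPM in all *EGFP*-high against 23.5 in all *EGFP*- cells (104 UMIs), and *EGFP*-low cells held 70 UMIs of it. Between *EGFP*-high and *EGFP*- matched cells 2 of 11 Wnt genes tested were past 2-fold higher, *Rspo3* and *Wif1*, and 1 was lower, *Ccnd1* (93.0 against 296 CPM, -1.67, -1.88 to -1.47). Over all genes tested there, 0.828% of 3746 were higher and 2.64% lower. Without the 5 clusters 0 of 9 Wnt genes were past 2-fold in either direction, where *Rspo3* stood at 0.55 (0.29 to 0.81) and *Wif1* had 58 against 35 UMIs, too few to be tested.

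The FGF list had 6 of 14 genes with a row, of which all 6 were tested and 0 were past 2-fold, with a median of 0.30. The feedback inhibitor *Spry1* stood at 97.7 against 70.9 CPM (0.46). In the BMP and TGF-beta list 0 of 6 tested genes passed 2-fold (median 0.19), in the Hedgehog list 0 of 3 (median 0.20), in the IGF list 0 of 7 (median -0.06) and in the retinoid list 0 of 3 (median -0.09). With 0.435% of all genes past 2-fold higher and 2.04% lower, a count of 0 in lists this short does not set them apart. *Igfbp7*, an IGF binding protein made by vessels, was lower in *EGFP*-high cells without the 5 clusters, at 190 against 468 CPM (-1.30, -1.48 to -1.12). It was the 1 of 7 IGF genes past 2-fold lower there, where 1.08% of all genes were.

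Transcription factors of mesenchyme had a median of 0.19 over 16 of 35 listed genes in the main comparison. Past 2-fold, *Msx1* was higher (1.31, 0.80 to 1.85) and *Gata3* and *Hand2* were lower, where 0.435% and 2.04% of all genes were. Both lower genes are also active in sympathetic neurons. Without the 5 clusters both fell under the minimum of 100 UMIs and were not tested, with 63 against 34 UMIs of *Hand2* and 30 against 47 of *Gata3*. *Tcf21*, a factor of visceral fibroblast precursors, stood at 237 against 162 CPM (0.55, 0.41 to 0.69), and its median per matched cell was 145 CPM in *EGFP*+ and 79.3 in *EGFP*- cells. The posterior HoxA and HoxD genes, which give urogenital tissue its position, had 0 of 8 past 2-fold and a median of 0.15, with *Hoxd13* at 100.2 against 73.9 CPM (0.44, 0.23 to 0.65).

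The contractile and the immediate early genes each lay to 1 side of 0. All 10 contractile genes tested were below 0 in the main comparison, with a median of -0.33 and *Actg2* past 2-fold lower, as were 2.04% of all genes. These are ratios of summed levels, and the median matched cell was not lower in *EGFP*+ cells for *Myl9* (129 against 117 CPM) or *Tpm2* (116 against 114 CPM) and was at 0 in both groups for *Actg2*. The median was -0.46 without the 5 clusters, and -0.52 with 2 of 9 above 0 in cluster 0 alone. All 12 immediate early and stress genes tested were above 0, with a median of 0.43 and none past 2-fold. The median was 0.33 without the 5 clusters, and 0.38 with 10 of 12 above 0 in cluster 0 alone. There *Klf4*, a zinc finger factor, was past 2-fold higher (712 against 312 UMIs, 1.21, 1.02 to 1.41), as were 0.361% of all genes. *Jun* stood at 3632 against 2561 CPM (0.50, 0.47 to 0.54) and *Btg2* at 882 against 571 CPM (0.63, 0.55 to 0.70). The median matched cell had 2974 CPM of *Jun* in *EGFP*+ and 1487 in *EGFP*- cells. Genes of this list can be induced while tissue is dissociated, and the part of dissociation in the difference was not tested. Over all genes tested the median was 0.01.

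Matrix genes had a median of 0.11 over 26 tested. The proteoglycan gene *Fmod* was past 2-fold higher (41.2 against 16.1 CPM, 1.36, 0.95 to 1.78), as were 0.435% of all genes. Its ratio turned to -0.13 when cells with markers of other types were left out. Without the 5 clusters the median was -0.14. There *Eln* and *Mfap5* were past 2-fold lower and *Fmod* was past 2-fold higher (1.17), where 0.610% and 0.292% of all genes were. Between *EGFP*-high and *EGFP*- cells without the 5 clusters 4 of 24 were lower, namely *Eln*, *Fn1*, *Mfap5* and *Col15a1*, and 1 was higher, *Fmod*, where 1.08% and 0.523% of all genes were, and the median was -0.33. Mitosis and S phase genes had a median of 0.16 over 20 tested and ribosomal protein genes 0.01 over 47 tested, each with none past 2-fold. Without depth matching all 21 mitosis and S phase genes tested lay above 0 (median 0.37). Without cells with markers of other types 3 of 16 were past 2-fold lower (median 0.38), where 0.926% of all genes were. The genes within 2 Mb of *Gt(ROSA)26Sor*, the locus that carries the reporter of the study, had a median of 0.08 over 15 tested with none past 2-fold, and *Gt(ROSA)26Sor* itself had 81 against 75 UMIs.

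**Figure D5:**
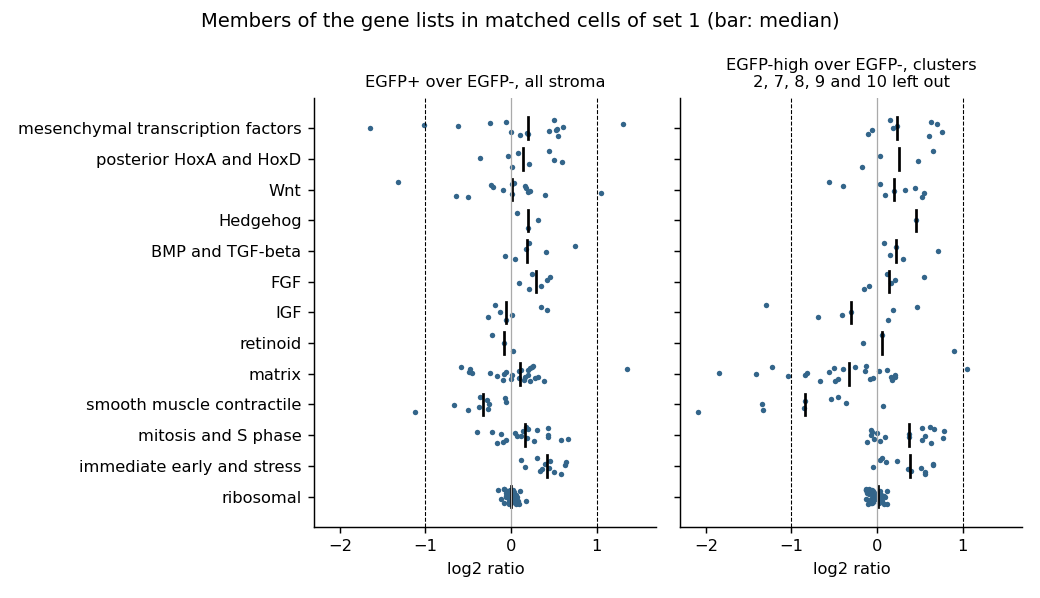
The log2 ratio of each tested member of 13 gene lists, as points with the median as a bar, between *EGFP*+ and *EGFP*- matched cells (left, 210 pairs) and between *EGFP*-high and *EGFP*- cells without the clusters led by genes of other cell types (right, 90 pairs), with dashed lines at 2-fold. On the left all 12 immediate early genes lie above 0 and all 10 contractile genes below 0, and ribosomal genes lie close to 0 in both panels.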

How the data were processed

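According to the methods of the study, UMIs were counted with Cell Ranger 3.1.0 on mm10 with added transgene sequences, *mGFP* among them, and droplets judged empty, to hold several cells or to be high in mitochondrial RNA were filtered. Labels and methods name different versions of the 3' kit. No removal of free RNA is stated. What the authors deposited is the natural log of scaled UMIs, ln(1 + 10000 × UMIs / total UMIs of the cell), so UMIs and totals were recovered for each cell, and all 11120281 values above 0 were whole within 0.05. Since the values were logged, not raw counts, the recovered UMIs were used. The table was held in part: 9781 of 9784 rows were used, over chromosomes 1 to 7, 10, X and part of 8. *Set* 1 shared 1 barcode with set 2 and 0 with set 3. No doublet caller was run.

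*EGFP*+ and *EGFP*- cells were paired 1:1 by total UMIs within 0.1 on the log10 scale. Ratios of summed CPM have exact binomial 95% intervals, and sums under 3 UMIs were set to 3. Levels have exact Poisson intervals and shares Clopper-Pearson intervals. Genes with at least 100 UMIs over both groups were compared, and past 2-fold means a log2 ratio of at least 1 or at most -1. Clusters came from 2000 variable genes, 20 components, 15 neighbours and Leiden clustering (leidenalg 0.10.2, resolution 0.5; Python 3.11.15, scipy 1.17.1). Named genes were the 12 highest and the 12 lowest by the interval bound nearest 0, in each comparison, and members of fixed lists. The cells, lists and genes were chosen with earlier results of these data known. *Dcn*, *Hbb-bs* and genes that had changed in *EGFP*-high cells were singled out after their values were seen. Positions are from RefSeq genes on GRCm38.p6 (mm10). Some genes that the rule names are not reported here. The steps were tested on simulated data, in which all cells of a group shared the same profile. Genes held by few cells were therefore not covered by that test.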

Additional observations from a re-analysis of the deposited data

Results flagged for a closer look

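*EGFP* mRNA outside the stromal rule was a signal in cells that the comparisons did not use. The 231 other cells of set 1 held 268 *EGFP* UMIs, at 32.3 CPM (28.6 to 36.4), more than the 3 UMIs taken as the floor. Of these cells 91 (39.4%, 33.0 to 46.0) had at least 1 *EGFP* UMI and 2 were *EGFP*-high, at a median of 25861 UMIs per cell. The source of this signal was not tested.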

How the results depend on the processing

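No paired analysis was possible because set 1 is 1 library without numbered replicates. The main counts, 20 genes higher and 94 lower, moved by over 1.5 times under most alternatives. They were 43 higher without depth matching, 9 and 14 after thinning, 31 higher with at least 3 *EGFP* UMIs, and 9 and 42 with at least 10 collagen UMIs. They were 10 and 22 without cells with markers of other types, 11 and 47 without mitotic cells, and 4 and 7 in the largest cluster. Among alternatives chosen after seeing the data, they were 11 and 23 without the 5 clusters, 31 higher for *EGFP*-high cells, and 31 lower for *EGFP*-high cells without the 5 clusters. A minimum of 30 UMIs gave 87 and 262, and of 300 UMIs 4 and 30. The other 6 counts stayed within 1.5 times. Fewer cells and genes enter several of these.

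The *EGFP*+ share of 56.4% was 31.4% with at least 3 *EGFP* UMIs, 46.8% after thinning and 21.9% for *EGFP*-high cells. List medians moved for posterior HoxA and HoxD (-0.22), IGF (0.28) and ribosomal genes (0.09) in the largest cluster, for Hedgehog (0.017) and retinoid genes (-0.23) without depth matching, and for Hedgehog (0.012) and FGF genes (0.15) without the 5 clusters. The other 43 list medians moved by less than 1 SD over their members.

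Signs turned for several of the leading genes, and the cause was not tested. Without cells with markers of other types *Aqp1* was -0.66, *Nts* -1.61, *Gng11* -0.24 and *Fmod* -0.13. Without mitotic cells *Aqp1* was -0.24, *Myct1* -0.84, *Cd93* -0.25 and *Sfn* 3.34. *Aqp1* was -0.48 with at least 10 collagen UMIs. Without the 5 clusters *Aqp1* was -0.92 and *Emcn* -0.67. For *EGFP*-high cells *Cdh5* was -0.67, *Cd93* -2.25 and *Tm4sf1* -0.64, and without the 5 clusters *Aqp1* was -0.55, *Nts* -0.39 and *Tm4sf1* -0.29. Genes under 30 UMIs in an alternative were given no value. With 1 library, no difference here could be checked in a second animal, and *EGFP*- cells include cells whose *EGFP* mRNA was not captured.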

Other observations

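The *EGFP* level within *EGFP*-high cells also differed by cluster, with a median of 6637 CPM over the 17 cells of cluster 3, 4124 over the 17 of cluster 1 and 3627 over the 36 of cluster 0. Over all 535 stromal cells, 34 had at least 3 UMIs of *Wif1*, and 13 of these were *EGFP*-high (38.2%, 22.2 to 56.4). Of the 43 cells with at least 20 UMIs of *Cxcl12*, 17 were *EGFP*-high (39.5%). Of the 23 cells with at least 10 UMIs of *Rgs5*, 3 were *EGFP*-high (13.0%, 2.78 to 33.6). Over all stromal cells the share was 21.9%. The groups with *Wif1*, *Cxcl12* and *Rgs5* had medians of 16564.5, 26866 and 35483 UMIs per cell, against 17242 over all stromal cells. These groups of cells were chosen by their own gene, so the shares are descriptions.

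In cluster 1, *Rgs2* had 164 UMIs in 37 *EGFP*+ and 47 in 37 *EGFP*- matched cells (1.88), and *Rgs5* had 148 against 658 (-2.08), with 62.8% of the latter in 3 cells. In cluster 3, with 23 pairs, the immediate early gene *Jun* had 1671 against 2442 (-0.43), opposite to its sign over all 210 pairs.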
